A study of Homo sapiens with 48 samples.

Results

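Knockdown of SF3B1 in senescent fibroblasts was described from 16 of the 48 RNA-seq libraries of the study, chosen by their titles: 8 libraries from 4OHT-treated cells transfected with siRNAs against SF3B1 (siSF3B1) and 8 from 4OHT-treated cells transfected with non-targeting siRNAs (siNT). All were made from IMR90 ER:RAS cells, human lung fibroblasts that carry oncogenic RAS fused to the hormone-binding part of the oestrogen receptor, so that 4-hydroxytamoxifen (4OHT) switches RAS on and the cells enter senescence. Each target was represented by 2 siRNAs, siSF3B1-13 and siSF3B1-16 or siNT1 and siNT2, with 4 libraries each, transfected after 6 days of 4OHT in medium with 0.5% FBS and collected 2 days later. The 16 matching libraries from cells given the solvent DMSO, in which RAS was not induced, were used to ask whether an effect differed between the treatments. The model is 1 cell line with 1 inducible fusion, and the labels do not say whether replicates came from separate cultures, so p-values measure only the spread between these libraries. For 4 of the 4OHT siNT libraries the title says siNT2 and the treatment label siNT1. They were taken as siNT2, and both are non-targeting.

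SF3B1 is the largest protein of the U2 small nuclear ribonucleoprotein (U2 snRNP), the part of the spliceosome that recognises the branch point upstream of a 3′ splice site and so helps to define the exon that follows. When this step fails, an exon can be skipped, an intron can be kept in the mRNA, or another 3′ splice site can be used. Senescent fibroblasts no longer divide and release cytokines, growth factors and proteases, together called the senescence-associated secretory phenotype (SASP), which NF-kB and other transcription factors control.

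Counts on genes ranged from 32346632 to 45855425 (median 37884048) in the siNT libraries and from 31467221 to 49222147 (median 36723560) in the siSF3B1 libraries. All 12 fibroblast markers examined were tested, and their summed level was 23000 to 23900 CPM (counts scaled to library size with TMM factors) in siNT and 21700 to 22900 CPM in siSF3B1. Of 12 epithelial, 9 endothelial and 12 leukocyte markers, 2, 1 and 1 had enough counts to be tested, and EPCAM, CDH1, PTPRC and SFTPC had at most 40, 12, 7 and 0 counts in any of the 16 libraries. SF3B1 itself stood at 315 to 340 CPM (median 327) in siNT and at 25.3 to 30.7 CPM (median 26.5) in siSF3B1, or 8.31% of the control level. The fall was alike with both siRNAs, with a log2 fold change of -3.60 for siSF3B1-13 and -3.64 for siSF3B1-16.

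The sequences of the exons and introns that changed most are shown first, because the knocked-down protein acts at the intron bases just before an exon. They were read in transcript direction from the GRCh37 genome, at the exon or intron of the GENCODE annotation whose recorded GRCh38 position equals that of the event, and each of these exons and introns lies in the coding part of its gene. Inclusion is given as PSI, the percent of a gene's transcripts that contain the exon or intron.

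Exons of 27 and 33 bases in TRIM27, a RING-finger ubiquitin ligase, and an exon of 72 bases in HERPUD1, an endoplasmic reticulum (ER) protein of the unfolded protein response, lost the most inclusion. An exon of 156 bases in KAT5, a histone acetyltransferase, gained the most. In these sequences the exon is in capitals, preceded by the last 50 bases of the upstream intron and followed by the first 6 of the downstream intron. The TRIM27 exons are at chr6:28875013-28875039 and chr6:28876585-28876617 on the minus strand, the HERPUD1 exon at chr16:56969316-56969387 and the KAT5 exon at chr11:65480819-65480974, both on the plus strand.
TRIM27, 27-base exon: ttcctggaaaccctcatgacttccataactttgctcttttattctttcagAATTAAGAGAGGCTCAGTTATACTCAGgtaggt
TRIM27, 33-base exon: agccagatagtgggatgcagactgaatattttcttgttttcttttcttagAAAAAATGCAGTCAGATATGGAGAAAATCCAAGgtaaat
HERPUD1, 72-base exon: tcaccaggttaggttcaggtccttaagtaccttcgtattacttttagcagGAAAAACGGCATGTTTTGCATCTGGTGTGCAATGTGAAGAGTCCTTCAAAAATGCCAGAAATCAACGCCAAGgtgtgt
KAT5, 156-base exon: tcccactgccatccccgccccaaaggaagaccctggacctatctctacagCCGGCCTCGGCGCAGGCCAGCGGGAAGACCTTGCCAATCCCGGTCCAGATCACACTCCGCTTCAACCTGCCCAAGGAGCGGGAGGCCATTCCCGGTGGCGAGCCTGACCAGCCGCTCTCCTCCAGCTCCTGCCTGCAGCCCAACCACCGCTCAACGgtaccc

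Short introns of LRCH4, a leucine-rich repeat protein, and JTB, a small membrane protein, were among those that gained the most retention, whereas introns of C1orf63 and SFRS18, both genes of arginine- and serine-rich nuclear proteins, lost the most. The LRCH4 intron of 246 bases (chr7:100175536-100175781, minus strand) and the JTB intron of 200 bases (chr1:153949252-153949451, minus strand) are shown whole, with the 6 bases of the 5′ splice site and the last 23 bases in capitals. Of the C1orf63 intron (chr1:25570125-25571640, minus strand) and the SFRS18 intron (chr6:99850587-99851704, minus strand) the last 50 bases are shown, with the last 23 in capitals.
LRCH4, whole intron: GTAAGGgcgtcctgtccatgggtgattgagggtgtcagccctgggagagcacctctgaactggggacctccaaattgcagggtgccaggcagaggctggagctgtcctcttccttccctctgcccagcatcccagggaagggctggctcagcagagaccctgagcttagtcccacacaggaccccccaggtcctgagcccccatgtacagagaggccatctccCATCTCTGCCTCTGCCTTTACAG
JTB, whole intron: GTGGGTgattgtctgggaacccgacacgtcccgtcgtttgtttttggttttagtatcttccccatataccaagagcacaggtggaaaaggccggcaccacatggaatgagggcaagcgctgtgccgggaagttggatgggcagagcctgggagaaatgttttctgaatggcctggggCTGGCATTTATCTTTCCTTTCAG
C1orf63, intron end: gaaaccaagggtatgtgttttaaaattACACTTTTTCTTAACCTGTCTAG
SFRS18, intron end: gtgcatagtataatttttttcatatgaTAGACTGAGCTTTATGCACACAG

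The largest change at an alternative 3′ splice site was in CLINT1, a clathrin adaptor, where knockdown raised the use of a site 54 bases upstream. These 54 bases (chr5:157216522-157216575, minus strand) are in capitals, between intron bases before them and exon bases after them.
CLINT1, 3′ splice sites: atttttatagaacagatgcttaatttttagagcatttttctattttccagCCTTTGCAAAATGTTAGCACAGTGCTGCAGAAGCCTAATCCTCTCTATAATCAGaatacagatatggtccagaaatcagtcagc

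Exons and introns each changed almost in 1 direction. Of 7673 cassette exons tested, 2299 (30%) were called, meaning a limma adjusted p under 0.05 and a change of at least 5 PSI points: 2220 (28.9%) were skipped more and 79 (1.03%) were included more. Of 5248 introns, 779 (14.8%) were called, 768 (14.6%) retained more and 11 (0.21%) retained less. To be tested, an event had to span at least 5 PSI points over the 48 libraries, which the knockdown libraries help it to do, so these shares depend on that filter. Without it 2156 of 24757 covered exons were skipped more and 76 included more, and 757 of 21671 introns were retained more and 10 less. Alternative 3′ splice sites were called in 84 of 547 events (15.4%; 10.6% with higher and 4.75% with lower PSI) and alternative 5′ splice sites in 28 of 371 (7.55%; 5.93% higher and 1.62% lower). The median change was -11.3 points among the skipped exons and 7.92 points among the retained introns, and 509 exons fell by at least 20 points while 71 introns rose by as much.

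Mean PSI over all tested exons was 83.4 to 83.6 in the 8 siNT libraries and 77.5 to 78.9 in the 8 siSF3B1 libraries, a difference of -5.26 points (two-sided p = 0.000155 in an exact permutation test, which is the lowest value 8 against 8 can give, and 0.000155 after adjustment over the 4 kinds of event). The siRNAs stood apart, with 77.5 to 77.7 for siSF3B1-13 and 78.8 to 78.9 for siSF3B1-16. Mean PSI of introns was 1.10 to 1.33 in siNT and 3.79 to 4.14 in siSF3B1, a difference of 2.71 points with the same p. The size depends on which events are averaged: without the minimum span it was -1.71 points for exons and 0.805 points for introns, and without the filter on balanced intron reads it was 4.83 points for introns, each with the same direction and p. Alternative 3′ and 5′ sites rose by 1.18 and 0.74 points in the mean, with that same p, but the median over events instead of the mean turned these to -0.633 and -1.79, so no direction can be given for them.

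The top 3 exons in each direction were chosen among events without overlap between the groups. The 27-base TRIM27 exon had a PSI of 94.4 to 100 (median 100) in siNT and 12.5 to 28.9 (median 20.9) in siSF3B1, a change of -78.7 points. The HERPUD1 exon went from 97.5–100 (median 100) down to 13.3–32.2 (median 24), a change of -76.4 points. The other TRIM27 exon, of 33 bases, ranged from 95.6 to 100 (median 100) in siNT and from 22.7 to 36.5 (median 29.5) in siSF3B1, a change of -70.1 points.
These 3 exons, used in nearly every control transcript, were left out of most transcripts after knockdown. In the other direction, the KAT5 exon rose from 26.8–55.0 (median 46.7) to 79.0–96.8 (median 85.8), by 41.5 points. A 477-base exon of KLHL5, a Kelch-family protein, rose from a median of 21.8 to 50.5, and a 309-base exon of PXN, which encodes the focal adhesion protein paxillin, from 8.51 to 39.9.

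**Figure D1:**
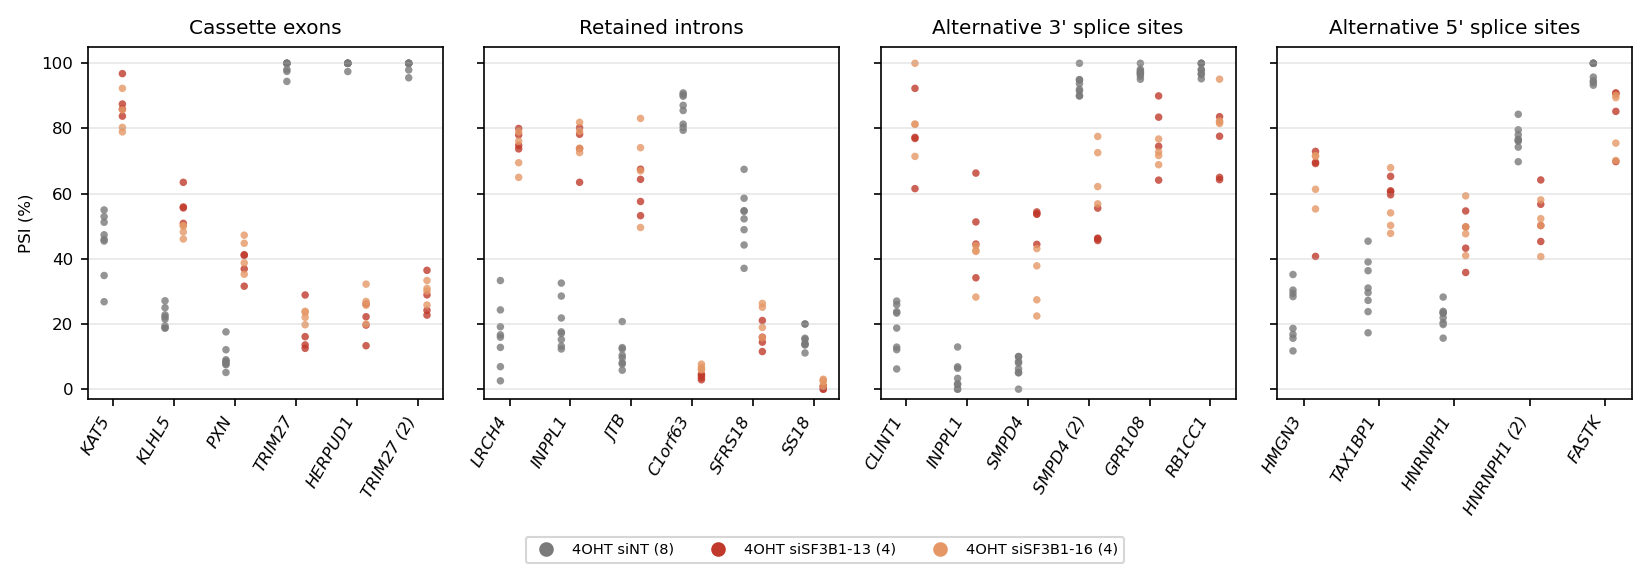
PSI in percent (y axis) of the events with the largest change, by kind of event, with 1 point per library: grey for the 8 siNT libraries, red for siSF3B1-13 and orange for siSF3B1-16 (4 each), all in 4OHT. The TRIM27 and HERPUD1 exons sit at 94.4 or above in siNT and at 36.5 or below in siSF3B1, and the C1orf63 intron falls from a median of 86.3 to 5.27. SMPD4 and HNRNPH1 appear with 2 alternatives of 1 set, which share reads.

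Among introns, LRCH4 retention was 2.56 to 33.3 (median 16.3) in siNT and 65.0 to 80 (median 75.5) in siSF3B1, a change of 58.1 points. Retention of a 228-base intron of INPPL1, the inositol phosphatase SHIP2, rose from a median of 17.3 to 76.1. The JTB intron rose from 5.81–20.7 (median 10) to 49.6–83.1 (median 65.7).
The 11 introns that went the other way had a median control PSI of 13.1. A call in this direction takes a fall of at least 5 points, so it can only reach introns already kept in part before knockdown. The C1orf63 intron, of 1516 bases, went from 79.4–90.9 (median 86.3) down to 2.88–7.69 (median 5.27), a change of -80.4 points, and the C1orf63 mRNA rose by 1.85 on the log2 scale. The SFRS18 intron fell from a median of 53.4 to 17.4, and a 703-base intron of SS18, a subunit of BAF chromatin remodellers, from 14.6 to 0.96.

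At alternative sites, the upstream CLINT1 3′ site was used in 6.20 to 27% (median 21) of siNT transcripts and 61.5 to 100% (median 79.3) of siSF3B1 transcripts, from 10 to 37 reads per library. An 82-base INPPL1 alternative rose from a median of 2.48 to 43.3, and a 187-base alternative of SMPD4, a sphingomyelinase, from 7.12 to 43.8. Among 423 3′ splice site sets with 2 alternatives, the form with the longer exon was called as used more in 47 and the form with the shorter exon in 17. For 302 such 5′ sets the counts were 20 and 3. The largest 5′ change was in HMGN3, a nucleosome-binding protein, with a median PSI of 23.5 in siNT and 69.4 in siSF3B1.

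The skipped exons had a median length of 93 bases, against 111 among exons tested and not called, and 47.3% of them against 40.2% had a length that is a multiple of 3. Of the 2115 found in the annotation, 90.8% lay in coding sequence. In siNT, 79.3% of the skipped exons and 78.1% of those not called had a PSI of at least 95 and could move mainly downwards, and 91.9% of the introns retained more and 98.6% of those not called had a PSI of at most 5 and could move mainly upwards. The retained introns were shorter and richer in G and C: a median of 346 bases and 59.2% GC, against 941 bases and 49.1% among introns not called. In their 20-base pyrimidine window before the 3′ splice site the median share of T was 30%, against 40%. The median share of C and T together was 75% in both groups. The 11 introns retained less had a median of 1220 bases and 37.4% GC. The letters CTNAC, a loose form of the human branch-point motif, were searched on the transcript strand only, in the last 50 bases of the intron. They stood before 23.4% of skipped exons, 24.2% of exons not called and 24% of all exons matched, and in 31% of retained introns, 29% of introns not called and 29.2% of all introns matched. A match to these letters is a description, not a mapped branch point.

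The called events lay in 1968 genes, or 44.8% of the 4391 genes with a tested event. Of these, 1250 carried 1 event, 439 carried 2, 156 carried 3, 64 carried 4 and 59 carried 5 or more. Genes with more tested events have more chances to be called. CAST, which encodes the calpain inhibitor calpastatin, led with 10 called events of 17, all skipped exons. A 72-base CAST exon fell from a PSI of 97.2–100 (median 100) to 53.2–71.7 (median 61.2). In BECN1, which encodes the autophagy protein beclin, 9 of 14 events were called (7 skipped exons and 2 retained introns), and its 143-base exon went from 58.1–76.7 (median 67.8) down to 6.83–23.1 (median 10.5). COPA, a subunit of the COPI vesicle coat, had 8 called events of 19, EIF4G1, the scaffold of cap-dependent translation initiation, had 9 of 13, and HGS, an endosomal sorting protein, had 8 of 9, of which 7 were retained introns. FASN, the fatty acid synthase, carried 6 retained introns.

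At the level of the mRNA, 7696 of 9991 genes tested were called (77.0%, edgeR adjusted p under 0.05), 3941 higher (39.4%) and 3755 lower (37.6%) in siSF3B1. In DMSO 36.5% rose and 36.2% fell. Because most genes passed, a count for any gene group is to be set against these shares. At least 2-fold changes numbered 344 up and 811 down, and 6710 of the called genes (67.2% of those tested) had no overlap between the 8 and 8 libraries. A direction shared by both siRNAs, each called and without overlap, was held by 5962 genes, and in 4302 of them (72.2%) siSF3B1-13 gave the larger change although SF3B1 fell alike with both. In bulk RNA, fewer cells of a kind and less RNA per cell cannot be told apart.

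For most of the most changed genes no splicing event could be tested. Of the 12 that rose most and the 12 that fell most among the genes shared by both siRNAs, 23 had no such event, the exception being SF3B1. Over all genes, 4284 of 9989 had a tested event. An event needed enough reads in each of the 48 libraries, which a gene with few counts in 1 group can fail to supply. Nothing is therefore read from this count. Rising furthest was GUCA1B, which encodes a calcium sensor best known from photoreceptors, at 0.403 to 0.712 CPM (median 0.568) in siNT and 7.89 to 10.6 CPM (median 9.70) in siSF3B1. Its log2 fold change was 4.05 (SE 0.13, adjusted p = 1.16e-30), and 4.11 in DMSO. OVGP1, an oviduct glycoprotein gene, rose by 3.18, and AC133561.1, an unnamed locus, by 3.35. These were low-abundance transcripts that rose by about as much in DMSO.

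Other genes among the top 12 had smaller values in DMSO. PDK4, the kinase that turns off pyruvate dehydrogenase, was at 2.53 to 4.49 CPM (median 3.17) in siNT and 14.6 to 46 CPM (median 28.4) in siSF3B1, a log2 fold change of 3.12 (SE 0.24, adjusted p = 3.30e-16) that was 3.64 with siSF3B1-13 and 2.21 with siSF3B1-16. G0S2, an inhibitor of triglyceride breakdown, rose from 4.46–6.93 CPM (median 5.31) to 26.9–55.9 CPM (median 39.8). TCF21, a transcription factor of mesenchymal cells, rose from 5.12–6.61 CPM (median 6.21) to 29.3–59.0 CPM (median 44.5).
These genes were chosen among those without overlap between the groups. In DMSO the log2 fold changes of PDK4, G0S2 and TCF21 were 0.75, 0.64 and 0.53, and the effect in 4OHT exceeded that in DMSO by 2.37, 2.28 and 2.32 (adjusted p of the difference 5.22e-06, 2.56e-06 and 2.54e-15). FAM108C1, a serine hydrolase gene, behaved alike, with 2.61 in 4OHT and 0.24 in DMSO. HEY1, a Notch-induced repressor, rose from 17.7–19.3 CPM to 103–110 CPM, ABCG1, a cholesterol exporter, from 10.4–12.3 CPM to 55.8–70.1 CPM, and ADAMTS5, a protease that cuts aggrecan, from 20.2–25.5 CPM to 102–149 CPM. The effect was larger in 4OHT for 8 of the 12 top rising genes, against 17.9% of all genes, but the 12 were picked for their rise in 4OHT, which favours this, so nothing is read from the count.

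Falling furthest was PKNOX2, a homeobox gene, at 6.85 to 8.25 CPM (median 7.37) in siNT and 0.103 to 0.370 CPM (median 0.171) in siSF3B1, where 4 to 16 reads were counted per library. Its log2 fold change was -5.10 (SE 0.12, adjusted p = 1.02e-35), with -5.85 for siSF3B1-13 and -4.68 for siSF3B1-16, and -1.74 in DMSO. BIRC3, an NF-kB-induced inhibitor of apoptosis, went from 24.2–35.4 CPM (median 31.5) to 3.42–6.29 CPM (median 5.18), a log2 fold change of -2.63 (SE 0.16, adjusted p = 5.02e-20).
In DMSO the BIRC3 value was -0.02 (adjusted p = 0.938), and the difference between the treatments was -2.61 (adjusted p = 2.60e-12). ZC3H7A, a zinc-finger RNA-binding protein, went from 81.8–92.4 CPM to 11.7–13.7 CPM with similar values in DMSO (-2.77 and -2.49). OSBPL5, a lipid transfer protein at membrane contacts, fell by 2.68 in 4OHT and by 0.89 in DMSO. For 9 of the 12 top falling genes, namely PKNOX2, PLEKHJ1, RASSF4, CAND2, ZC3H7A, OSBPL5, SLC25A42, BIRC3 and RGS20, the fall was larger in 4OHT, against 19.9% of all genes, a count that the choice of genes by their fall in 4OHT favours in the same way.

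**Figure D2:**
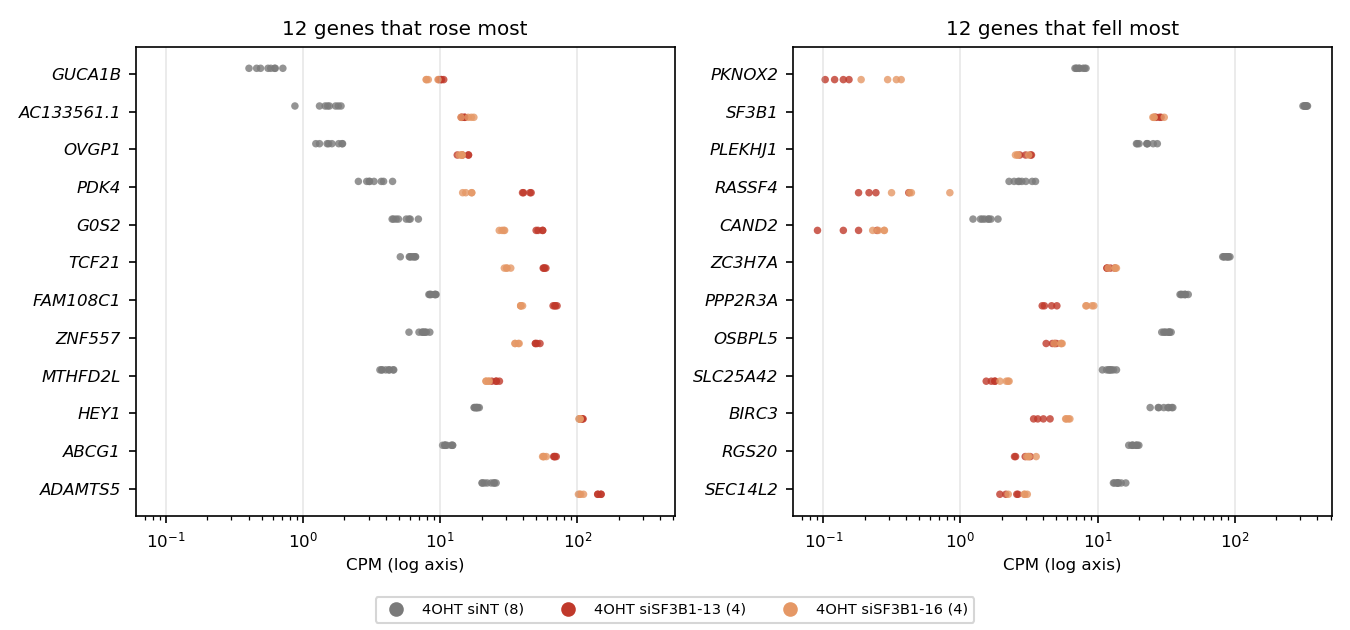
CPM on a log axis (x) of the 12 genes that rose most and the 12 that fell most with both siRNAs, with 1 point per library: grey for siNT (8), red for siSF3B1-13 and orange for siSF3B1-16 (4 each), all in 4OHT. The genes were chosen without overlap between grey and coloured points, and PKNOX2 lies at 6.85 to 8.25 CPM in siNT and at 0.103 to 0.370 CPM in siSF3B1.

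Splicing factors moved both ways. Of 28 U2 snRNP and branch-point factors tested, SF3B1 included, 14 rose and 11 fell (median log2 fold change 0.22, against 0.03 over all genes). RBM5, a splicing regulator with tumour suppressor activity, fell from 65.2–71.5 CPM (median 66.4) to 14.9–20.5 CPM (median 17.6), and DDX42, a helicase that binds SF3B1, from 123–132 CPM (median 125) to 39.2–42.4 CPM (median 40.2). RBM39 rose from 115–127 CPM (median 120) to 234–260 CPM (median 252), and DDX46, a helicase of the early spliceosome, rose by 1.13 on the log2 scale.
At least 1 event was called in 13 of the 22 factors with a tested event, against 44.8% over all genes with one. Exons of 104 and 166 bases in SF3B3, another subunit of the same complex, fell from median PSI values of 100 and 100 to 72.4 and 75. A 64-base exon of U2AF2, the large subunit of the factor that binds the polypyrimidine tract, was nearly absent in siNT (0 to 2.61, median 0.91) and present in siSF3B1 (17.4 to 32, median 22.9). RBM23, a paralogue of RBM39, lost a 54-base exon, whose PSI went from a median of 97.4 to 50.1.

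SR proteins, which bind exonic enhancers, rose in 10 of 13 cases (76.9%, against 39.4% of all genes) and fell in 2 (median 0.34). SRSF3 and SRSF1 rose by 0.85 and 0.61, while SRSF5 and TRA2B fell by 0.48 and 0.15. A 285-base intron of SRSF5 went from a PSI of 11.6–20 (median 14.1) to 34.5–56.1 (median 46.3). The proteins of the tri-snRNP and the Prp19 complex join after U2 snRNP. Of these, 25 of 39 rose (64.1%) and 4 fell (10.3%), with a median of 0.27. PRPF3 rose most, from 41.7–45.6 CPM (median 43.9) to 101–112 CPM (median 106), and the 4 that fell were EFTUD2 (-0.65), SART1 (-0.47), DHX35 (-0.26) and BCAS2 (-0.12). An 81-base exon of CDC5L, a core Prp19 subunit, went from a PSI of 100 in each siNT library to 58.6 to 77.5 (median 65.4).
The hnRNP and PTB proteins, mostly splicing repressors, rose in 14 and fell in 10 of 27 cases (median 0.11). PTBP2, the neuronal PTB paralogue, rose from 6.08–7.62 CPM to 14.5–16.8 CPM, and HNRNPU fell from 354–395 CPM to 169–195 CPM. A 50-base HNRNPH1 exon fell from a median PSI of 83.6 to 33.2, and an 88-base exon of PCBP2, a poly(C)-binding protein, from 82.7 to 37.4. Of 11 kinases of SR proteins, 5 rose (45.5%) and 3 fell (27.3%).

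Genes of the secretory phenotype did not move as 1 group. Of 21 cytokines and chemokines tested, 6 rose (28.6%, against 39.4% of all genes) and 10 fell (47.6%, against 37.6%), with a median of -0.17. IL6 was at 102 to 140 CPM (median 115) in siNT and 26.5 to 39.6 CPM (median 31.9) in siSF3B1, 3.60-fold lower (log2 -1.85, SE 0.15, adjusted p = 9.77e-16). The monocyte attractant CCL2 fell from 24.9–31.1 CPM (median 26.6) to 7.53–11.3 CPM (median 8.82), and the interferon-induced CXCL10 from 28.6–34.4 CPM (median 30.9) to 11–13.8 CPM (median 11.9).
The groups did not overlap for these 3 genes. The falls of IL6 and CCL2 were larger in 4OHT than in DMSO, by -1.41 and -1.05 (adjusted p of the difference 2.78e-05 and 7.17e-09), and that of CXCL10 was smaller, by 0.58 (adjusted p = 0.0366). CSF2, the granulocyte-macrophage growth factor, fell by 1.15, CXCL6 by 0.94 and IL1A, an upstream cytokine of the phenotype, by 0.78. IL11, a relative of IL6 with a role in fibrosis, rose from 139–177 CPM (median 159) to 299–581 CPM (median 436), by 1.80 with siSF3B1-13 and 0.91 with siSF3B1-16. CXCL3, CXCL2, CCL20 and IL1B rose by 0.82, 0.64, 0.34 and 0.33. The sixth, CXCL12, was near the detection limit, with a mean of 0.103 CPM in siNT and 0.18 CPM in siSF3B1. CXCL8, at a mean of 3140 CPM in siNT and 2820 CPM in siSF3B1, was not called (log2 -0.15, adjusted p = 0.293).

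No event of the 2 cytokine genes with a tested event was called. The secreted proteases, their inhibitors and growth factors mostly rose: 19 of 32 were up (59.4%, against 39.4% of all genes) and 4 down. The median was 0.27, and in DMSO 19 were up too. GDF15, a stress-induced cytokine, went from 320–372 CPM (median 353) to 835–1120 CPM (median 971), and the hormone gene STC1 from 2350–2640 CPM (median 2480) to 4100–5120 CPM (median 4630). Among those that fell were IGFBP3 (-1.42), HBEGF (-1.25) and SERPINE2 (-0.47), of which SERPINE2 stood at 0.06 with siSF3B1-16 alone. A 28-base exon of PLAU, the urokinase gene, went from a PSI of 98.9–99.8 to 77.2–82.4.

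Among NF-kB subunits and feedback genes, 7 of 23 rose (30.4%) and 10 fell (43.5%), against 39.4% and 37.6% of all genes (median -0.14). Beside BIRC3, the pathway members IRAK2 and IKBKB fell by 0.81 and 0.70, while BCL3 and RELA rose by 0.73 and 0.51. Events were called in 7 of the 15 members with a tested event, close to the 44.8% over all genes. A 153-base exon of IKBKG, the regulatory subunit of the IkB kinase, went from a PSI of 65.8–86.2 (median 77.2) to 33.4–51.9 (median 45). Exons of IKBKB (91 bases, median 96.1 to 75.1) and of the receptor kinase IRAK1 (150 bases, 98.5 to 72.5) were skipped as well.

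**Figure D3:**
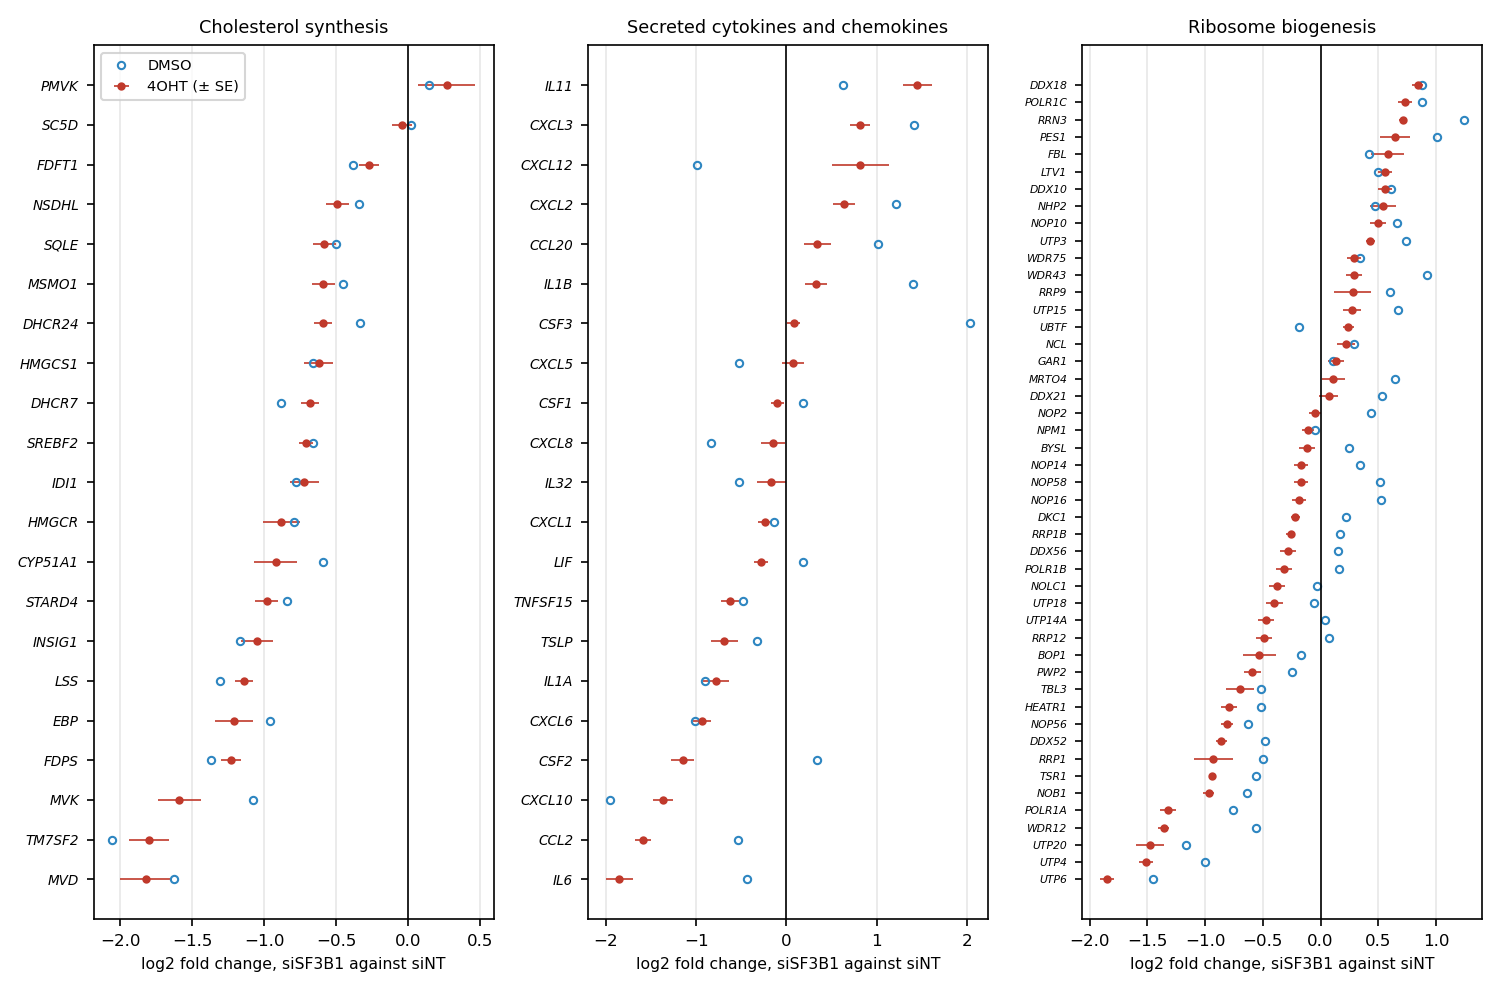
Log2 fold change of siSF3B1 against siNT (x) for tested members of 3 gene lists, with red points and standard errors for 4OHT and open blue points for DMSO. MVD and TM7SF2 lie lowest among the cholesterol genes shown at -1.82 and -1.80, IL6 and IL11 mark the ends of the cytokine list at -1.85 and 1.45, and 29 of 48 ribosome biogenesis genes had a more negative effect in 4OHT.

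Among the lists with more than 10 tested members, the cholesterol synthesis genes had the highest share called in 1 direction. In both treatments 20 of 22 genes fell and 0 rose, with a median of -0.80 in 4OHT and -0.78 in DMSO. MVD, an enzyme of the mevalonate pathway, went from 76.1–92.1 CPM (median 81.3) to 22.1–25.2 CPM (median 23.3), 3.54-fold lower (log2 -1.82, SE 0.18, adjusted p = 1.55e-12). The members that were not called were PMVK (0.27) and SC5D (-0.04).
Interferon-stimulated genes mostly fell, with 13 of 20 down (65.0%, against 37.6% of all genes) and a median of -0.40. The 2 that rose were IRF9 (0.36) and IFI16 (0.30). SAMD9L, an antiviral factor, went from 26.4–32.1 CPM (median 29.3) to 4.26–7.26 CPM (median 6.05), and OAS3 and PARP9 fell by 2.27 and 2.03. A 50-base exon of IRF1, a transcription factor of the interferon response, fell from 100 in each siNT library to 53.6–69.2 (median 57.9).

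In the p53 network 20 of 31 targets rose (64.5%, against 39.4% of all genes) and 6 fell (19.4%, against 37.6%). The median was 0.35, and in DMSO 23 rose and 4 fell (median 0.57). BTG1 and BBC3, an antiproliferative and a pro-apoptotic gene, rose by 1.31 and 1.22, CDKN1A by 0.27. MDM2, the ubiquitin ligase for p53 and one of its targets, rose from 190–208 CPM (median 202) to 275–325 CPM (median 292).
MDM2 also carried 5 called events of 7, the largest in a 134-base exon whose PSI went from 93.1–98.4 (median 96.7) to 65.1–81.0 (median 75.1). A 109-base exon of FAS, the death receptor, fell from a median of 100 to 79.4. Effects on 11 of the 31 p53 targets were more negative in 4OHT than in DMSO and on 2 more positive, against 19.9% and 17.9% of all genes.

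Cell cycle genes mostly fell, among the 21 of 40 mitotic and 27 of 42 replication genes with enough counts to be tested. Of 21 mitotic genes 13 fell (61.9%, against 37.6% of all genes) and 5 rose (median -0.47). Of 27 replication genes 16 fell (59.3%) and 5 rose (median -0.28). TOP2A, the topoisomerase of dividing cells, went from 8.52–10.8 CPM (median 9.38) to 1.57–2.70 CPM (median 2.13). In DMSO the median of the mitotic genes was -0.91, and for 12 of the 21 the effect was more positive in 4OHT by the test of the difference, against 17.9% of all genes. CENPF, a kinetochore protein, went opposite ways, with 1.39 in 4OHT and -0.88 in DMSO.
G1 cyclins, CDK inhibitors and RB family genes were split, 8 up and 8 down of 18 (44.4% each, near the 39.4% and 37.6% of all genes). E2F7, E2F3 and CDK2 rose by 0.91, 0.91 and 0.84, and RBL2 and RB1, which restrain E2F, fell by 1.37 and 0.81. CDKN2A was not called (0.07, adjusted p = 0.488). CDK4 carried 5 called events, and its 110-base exon went from a PSI of 97.8–100 to 63.9–91.0.

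Stress genes responded in part. DDIT3, the pro-apoptotic transcription factor CHOP, went from 4.87–6.41 CPM (median 5.31) to 20.2–33.8 CPM (median 27.6), 5.05-fold higher (log2 2.34, SE 0.14, adjusted p = 4.15e-20), and by 1.58 more than in DMSO (adjusted p of the difference 2.43e-09). Of 34 ER stress and ATF4 genes 17 rose and 9 fell (median 0.16), and ASNS, an ATF4 target that makes asparagine, fell from 27.5–33.7 CPM (median 30.4) to 6.05–11 CPM (median 8.00). CEBPB, a transcription factor of the secretory phenotype, rose from 161–195 CPM (median 185) to 397–515 CPM (median 440).
NRF2 target genes of the antioxidant response rose in 14 of 22 cases (63.6%, against 39.4% of all genes) and fell in 3 (median 0.28). HMOX1 stood at 0.98 and GCLC at 0.90. The cytosolic heat shock genes showed no common direction in 4OHT (9 up, 7 down of 23, median 0.03), whereas 17 rose and 0 fell in DMSO (median 0.30). The test of the difference was more negative in 4OHT for 13 of the 23 and more positive for 1, against 19.9% and 17.9% of all genes.

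Genes of protein synthesis and turnover also differed between treatments. Of 48 ribosome biogenesis genes 26 fell (54.2%, against 37.6% of all genes) and 15 rose in 4OHT (median -0.17). In DMSO 14 fell and 24 rose (median 0.18). The effect was more negative in 4OHT for 29 and more positive for 1, against 19.9% and 17.9% of all genes. UTP6, a subunit of the small-subunit processome, went from 50.2–54.4 CPM (median 52.8) to 12.2–16.4 CPM (median 14.8). Of 35 proteasome subunits 18 fell and 7 rose in 4OHT (median -0.10), against 11 and 17 in DMSO (median 0.19), with 18 more negative and 0 more positive in 4OHT.
PSME4, the nuclear proteasome activator, went from 190–219 CPM (median 201) to 62.1–87.4 CPM (median 73.6). A 78-base exon of PSMA4 went from a PSI of 91.2–100 (median 100) to 43.3–61.2 (median 53.3), and a 65-base exon of PSMD1 from 100 in each siNT library to 43.7–68.8 (median 58.0). In all, 12 of the 27 proteasome genes with a tested event carried a called one, close to the 44.8% over all genes.

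Collagens and matrix genes rose in 17 and fell in 16 of 46 cases, and 19 had a more positive effect in 4OHT (17.9% of all genes). COL3A1, a fibrillar collagen, went from 537–636 CPM (median 596) to 956–1210 CPM (median 1070), against a fall of 0.26 on the log2 scale in DMSO (difference 1.12, adjusted p = 4.53e-14). THBS1, a matrix glycoprotein, went from 1320–1380 CPM (median 1340) to 426–839 CPM (median 633), by -1.63 with siSF3B1-13 and -0.73 with siSF3B1-16.
Contractile genes fell in 13 and rose in 6 of 30 cases, and CTGF, induced by stretch and TGF-beta, rose from 184–209 CPM (median 195) to 410–531 CPM (median 472). In COL5A1 a pair of 69-base exons changed places, with median PSI values of 59.1 to 36 and 31.8 to 53.3. Lysosomal genes rose in 23 (59.0%) and fell in 5 (12.8%) of 39 cases (median 0.20). A 235-base intron of MCOLN1, a lysosomal calcium channel, went from a PSI of 0–8.24 (median 3.37) to 30.6–52.9 (median 42.5).
ERK outputs and feedback genes rose in 12 of 29 cases (41.4%, near the 39.4% of all genes) and fell in 5 (17.2%, against 37.6%). EGR1, an immediate early gene, fell by 1.39 and SPRY1, a feedback inhibitor, rose by 1.12. In the BCL2 family of apoptosis regulators 7 of 16 rose (43.8%) and 5 fell (31.2%), near the shares over all genes. BMF and BCL2A1 were up by 1.53 and 1.12 and BCL2L2 down by 1.02. Transcription elongation factors rose in 16 (51.6%) and fell in 10 (32.3%) of 31 cases. The 7SK proteins MEPCE and LARP7 were up by 1.18 and 0.79 and the PAF1 subunits CTR9 and WDR61 down by 1.81 and 1.57. In the NuRD chromatin complex 4 of 14 rose (28.6%) and 6 fell (42.9%). A called event was carried by 7 of 10 members with a tested one (44.8% over all genes). CHD4, its main ATPase, went from 313–330 CPM (median 323) to 184–227 CPM (median 206) and carried 3 called events of 7, the largest a change of -9.71 points in a 125-base exon. SUPT5H, the elongation factor SPT5, had 0 called events of 8 tested. Its log2 fold change was -0.21 (adjusted p = 0.0466) with overlap between the groups, and it was not called with siSF3B1-16 alone (-0.16). These counts cover only events that passed the filters. The study reported altered splicing of a SUPT5H microexon and a CHD4 intron after SF3B1 knockdown. It selected both events in a separate, earlier RNA-seq experiment and also measured them by RT-qPCR. In the setup described here its own filtering removed both, and they were added back for display. The count of 0 is therefore no sign that SUPT5H splicing was unchanged.

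**Figure D4:**
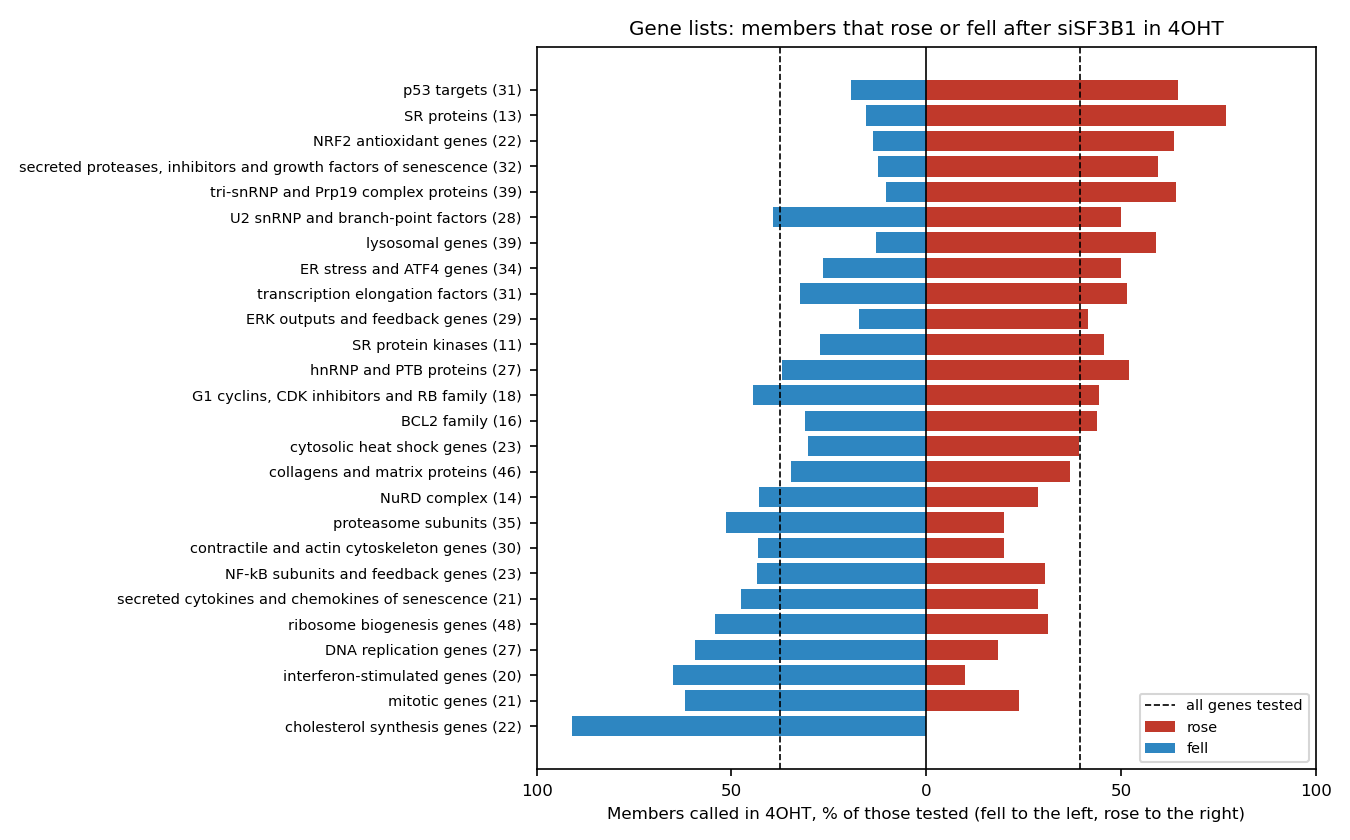
Percent of tested members (x) that rose or fell in 4OHT siSF3B1 against 4OHT siNT for each gene list, in red to the right and blue to the left. The number of tested members is in brackets, and dashed lines mark the shares over all 9991 genes (39.4% up, 37.6% down). Cholesterol genes fall in 90.9% of cases, and SR proteins rise in 76.9%.

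Carriers of events were set beside the level of their mRNA. Genes with a called event rose in 35.9% and fell in 39.4% of 1934 cases (median -0.01), close to genes whose tested events were not called (38.3% and 37.6% of 2350, median 0.01). By the number of called events, the share of genes that fell was 36.1% with 1 event, 39.7% with 2, 48.4% with 3, 48.4% with 4, and 71.2% (42 of 59, median -0.45) with 5 or more. This last group also had a higher control level (median 165 CPM, against 77.4 CPM with 1 event) and a median of 11 tested events, and the part of these in the result was not tested.
Where every skipped exon had a length that is a multiple of 3, which keeps the reading frame, 42% of 605 genes rose and 30.9% fell, and where none had, 34.6% of 671 rose and 44.1% fell. Genes with a retained intron and a skipped exon fell in 57.4% of 209 cases. BECN1 and COPA fell, from 75.9–79.1 CPM (median 76.9) to 31.1–37.3 CPM (median 34.9) and from 418–440 CPM (median 431) to 132–167 CPM (median 151). Genes with the largest single events went both ways. TRIM27, HERPUD1, KAT5 and LRCH4 rose by 0.34, 0.70, 0.69 and 0.94, and INPPL1 by 0.32, while HNRNPH1 fell by 0.69. The exons and intron shown for TRIM27, HERPUD1, KAT5 and LRCH4 all have lengths that are multiples of 3.

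Genes without introns offer no substrate to the spliceosome and were examined apart. Of 131 tested nuclear coding genes that the annotation gives with a single exon, 100 rose (76.3%, against 39.4% of all genes) and 13 fell (9.92%), with a median of 0.51, or 0.56 with siSF3B1-13, 0.37 with siSF3B1-16 and 0.30 in DMSO. Their summed level was 7360 to 7820 CPM (median 7680) in siNT and 10500 to 12300 CPM (median 11400) in siSF3B1, without overlap. A large part of this rise came from 1 gene, TMEM158, which went from a median of 1370 to 2790 CPM. OTUD1, a deubiquitinase, rose by 2.17, YY2, a transcription factor, by 1.75 and the small GTPase RHOB by 0.63, and among those that fell were CEBPD (-0.69), a C/EBP-family transcription factor, and the histone genes HIST1H4H (-0.63) and H1F0 (-0.58). NAP1L5 (-0.87) rested on 1 siRNA, with -2.59 for siSF3B1-13 and -0.15 for siSF3B1-16 and overlapping groups. The 13 mitochondrial coding genes, which have no introns either, rose in 11 cases and took 4.16 to 5.05% of counts in siNT and 5.96 to 6.81% in siSF3B1. CPM are shares of each library, so more RNA from genes without introns and less RNA from genes with them cannot be told apart.

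**Figure D5:**
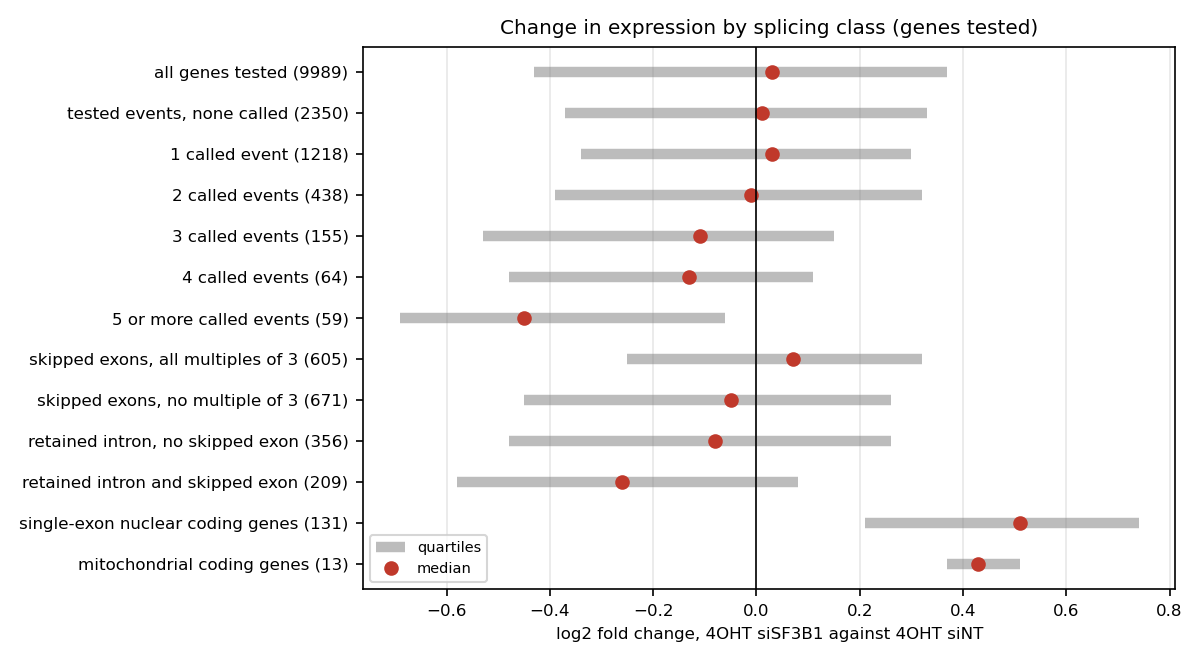
Log2 fold change of siSF3B1 against siNT in 4OHT (median and quartiles) for genes grouped by their called splicing events and by whether they have introns. The median is 0.03 for genes with 1 called event and -0.45 for those with 5 or more, and 0.51 for single-exon nuclear coding genes.

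A difference between the treatments passed the test for few splicing events. Of 13839 events, 75 (0.542%) had a different effect in 4OHT and DMSO, against 3781 of 9991 genes (37.8%) at the level of the mRNA. Among the events called in 4OHT, 33 of 2299 exons and 7 of 779 introns differed. Single events rest on as few as 10 reads, and genes on at least 10000 counts over the 48 libraries. The shares come from different tests, so they do not say that splicing differed less than mRNA levels. Among the 75 was the JTB intron, whose retention rose by 53.6 points in 4OHT and 30.4 points in DMSO (difference 23.2, adjusted p = 0.0285).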

How the data were processed

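The authors aligned single-end RNA-seq reads with vast-tools to the VAST-DB annotation named hg19, merged lanes and deposited raw counts per gene, with cRPKM (RPKM corrected for mappability, not tested here), and, per splicing event, PSI as a percent with a quality string of coverage and balance. Event coordinates in the deposited table lie in GRCh38, so loci printed here are those of the matching GRCh37 exons or introns, matched for 12178 of the 13839 tested events. The normalised CPM table was not used, and betAS was not run.

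Genes with at least 10000 counts over the 48 libraries (9991 of 19847 rows) were tested with edgeR 4.0.16 in R 4.3.3 (glmQLFit, glmQLFTest, TMM, 1 mean per group over 6 groups), and the difference between the effects in 4OHT and DMSO was a contrast in the same fit. Events were kept where each of the 48 libraries had a PSI with coverage VLOW or better, PSI spanned 5 points or more, and introns passed the balance test (p of 0.05 or above). PSI fractions were squeezed (0.01 plus 0.98 of the value) and tested with limma 3.58.1 on the logit scale. P-values were adjusted by Benjamini-Hochberg over all features tested, with a threshold of 0.05. Lists were described by counts and medians, with no set test. Alternatives were limma-voom, DESeq2 1.42.0, other scalings, filters, siRNAs, libraries and a replicate block. Both fits were tested on simulated data. Python 3.11.15, numpy 2.4.6, pandas 2.3.3, pysam 0.24.0 and matplotlib 3.10.9 were used for the rest.

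Counts per library in 4OHT ranged from 31467221 to 49222147 in the groups compared, while single events rest on as few as 10 reads. Replicate libraries differed by more than counting noise in a chi-square test over genes, and none was dropped. Each column of per-sample values could be assigned to a sample.

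The comparison and the gene lists were chosen with earlier results of these data known. Named genes were SF3B1, RBM39, SUPT5H and CHD4, the top 12 rising and top 12 falling genes called with both siRNAs and without overlap, in each list all members called in a direction if 5 or fewer and otherwise the 3 with the largest change, genes with at least 5 called events, the 3 events with the largest change per kind and direction, and called events of list members. A few further members were named after their values were seen: CXCL6, CSF2, IL1A, CXCL2, CCL20, IL1B, CXCL8, CDKN1A, CDKN2A, CENPF and the single-exon genes. Factors of nonsense-mediated decay and a few list members are not reported here gene by gene, although they are in the counts.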

Additional observations from a re-analysis of the deposited data

Results flagged for a closer look

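Several single libraries stood apart within their group of 8, by the gap to the nearest library as a share of the group's range. Of 110 groups examined 7 met this criterion, and chance alone gives about 1 in 20. TCF21 was lowest at 5.12 CPM in siNT1 replicate 1, where the nearest library had 5.95 CPM. RASSF4 was highest at 0.838 CPM in siSF3B1-16 replicate 1, against 0.439 CPM in the nearest. The TRIM27 exons of 27 and 33 bases had their lowest siNT PSI, 94.4 and 95.6, in siNT1 replicate 1, with the nearest at 97.5 and 98. The HERPUD1 exon was at 97.5 in siNT2 replicate 4 and at 100 in the other siNT libraries. JTB intron retention was 20.7 in siNT1 replicate 4, against 12.8 in the nearest, and the mean PSI of alternative 3′ sites was 58.7 in the same library, against 58.4.

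The effect of the knockdown differed between 4OHT and DMSO, by the contrast within edgeR, for many of the genes whose libraries are described, some of which were chosen for a large effect in 4OHT, which favours a difference. On the log2 scale, the effect in 4OHT minus that in DMSO was positive for PDK4 (2.37), FAM108C1 (2.37), TCF21 (2.32), G0S2 (2.28), ABCG1 (1.94), ADAMTS5 (1.89), DDIT3 (1.58), HEY1 (1.42), COL3A1 (1.12), TOP2A (0.97), ZNF557 (0.82), IL11 (0.82), CXCL10 (0.58), STC1 (0.39), CTGF (0.33), CEBPB (0.33) and RBM39 (0.23). For TOP2A and CXCL10 a positive value means a smaller fall in 4OHT.

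It was negative for PKNOX2 (-3.37), BIRC3 (-2.61), OSBPL5 (-1.79), SLC25A42 (-1.5), IL6 (-1.41), CCL2 (-1.05), CAND2 (-1.03), RGS20 (-1.03), RASSF4 (-0.98), PSME4 (-0.85), SAMD9L (-0.78), PLEKHJ1 (-0.72), PRPF3 (-0.56), MDM2 (-0.40), UTP6 (-0.39), DDX42 (-0.33), HNRNPU (-0.32), ZC3H7A (-0.28) and COPA (-0.23). For PRPF3 and MDM2, which rose, it means a smaller rise in 4OHT. Among the events described, JTB intron retention differed by 23.2 points.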

How the results depend on the processing

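For the counts and means of the comparison, 252 of 292 values under an alternative kept their direction and either stayed within 1.5 times (counts) or on their side of the threshold (means). The size of the mean PSI difference moved further: -1.71 (exons), 0.805 (introns), 0.341 (3′ sites) and 0.189 (5′ sites) points without the minimum span, -13.3, 12.5, 1.37 and 2.17 with PSI limited to 1 to 99, and 4.83 for introns without the balance filter. Of the values for named genes 4726 stayed on their side of the threshold, 314 lost the call, 12 gained it and 3 reversed. For named events these counts were 10859, 879, 8 and 1. The reversals were SERPINE2 (0.06 with siSF3B1-16 alone, 0.01 with siSF3B1-16 against siNT2), BAK1 (0.05 with siSF3B1-16 against siNT2) and a COL18A1 intron (-0.36 points with siSF3B1-13 against siNT1), the comparisons of matching siRNAs having been added after the data were seen. Taking the median instead of the mean turned alternative 3′ sites to -0.633 and 5′ sites to -1.79 points. A required 2-fold change left 1155 genes, 344 up and 811 down.

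Called events, skipped exons, exons included more, introns retained more, introns retained less, alternative 3′ sites, alternative 5′ sites and genes with a called event numbered, in this order, 454, 305, 31, 59, 4, 39, 16 and 386 with PSI limited to 1 to 99, which tests fewer events. They numbered 1902, 1348, 51, 435, 6, 47, 15 and 1290 with a LOW coverage score, 1625, 1256, 38, 263, 6, 47, 15 and 1171 with a minimum of 10 points, and 7000, 4015, 200, 2509, 77, 142, 57 and 3119 with no minimum. Without the balance filter 4958 events were called, 2473 introns retained more and 64 less, so the number of retained introns depends on it.

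Same-numbered libraries did not pair: over 24 pairs of such libraries the deviations correlated at a median of 0.0235 (-0.448 to 0.235). A replicate block gave 3924 genes up and 3724 down. Precision is limited for events with few reads and for genes such as CXCL12 and PKNOX2 with few counts.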
